A study of Mus musculus with 1 sample.

Results

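Thy1, Itga6, Itgb1, Cd9, Epcam, Cdh1, Cd24a and Mcam encode surface proteins whose antibodies are used to sort spermatogonia from testis cell suspensions. These 8 genes were taken by symbol from the 27998 genes listed for the library, and all 8 had UMIs (unique molecular identifiers, 1 for each captured mRNA molecule). Among cells kept for analysis their UMIs numbered 75 for Thy1, 521 for Itga6, 1103 for Itgb1, 1042 for Cd9, 716 for Epcam, 35 for Cdh1, 254 for Cd24a and 410 for Mcam. The mRNA of each was described across germ and somatic cells and across germ cell stages; protein on the cell surface was not measured here.

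The library came from wild-type (Zscan2+/+) C57BL/6 mice at postnatal day 8, 3 of them pooled in equal cell numbers; the study's methods give the substrain as C57BL6/J. Testis cells were selected on magnetic beads for THY1, and some unselected testis cells were added back before capture on the Chromium platform with v2 chemistry. Shares of cell types therefore follow the bead selection and the added cells as well as the testis. The pool is 1 library with no replicate, so no p-value is given, and intervals are 95% exact ones that cover counting error only. The Zscan2−/− library was not analysed here.

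Undifferentiated spermatogonia comprise the spermatogonial stem cells (SSCs) and the progenitors derived from them, and differentiating spermatogonia are marked by the receptor KIT. Both lie on the basement membrane of the seminiferous tubule beside Sertoli cells, and adhesion molecules hold them there. The integrin pair ITGA6 and ITGB1 binds laminin of that membrane, CD9 is a tetraspanin that associates with integrins, and CDH1 and EPCAM join cells to like cells. THY1 and CD24A are glycoproteins held in the membrane by a lipid anchor, and MCAM is an adhesion molecule of the immunoglobulin superfamily, also known from pericytes and smooth muscle.

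In GRCm38 the genes lie on 6 chromosomes. On the plus strand are Thy1 (chr9:44043384-44048579), Mcam (chr9:44134469-44142727), Itga6 (chr2:71745616-71858416), Itgb1 (chr8:128685654-128733200), Cdh1 (chr8:106603351-106670246), Cd24a (chr10:43578284-43584265) and Epcam (chr17:87635979-87651129), and Cd9 (chr6:125460266-125494791) is on the minus strand. GENCODE places other gene models over 3 of them: 4 over Itga6, 2 of these on its strand, 2 over Cd9 and 1 over Mcam, those last 3 on the opposite strand. Reads in an overlap on the same strand could be assigned to either gene or to neither.

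RefSeq promoter sequences (GRCm38.p6) were at hand for 4 of the 8 genes. The 250 bases before the start of Epcam and of Itgb1 are shown because, as described further on, Epcam had the largest ratio of germ to somatic level of the 8 genes whereas Itgb1 mRNA was found in every class of cell. Both are written 5′ to 3′ on the plus strand, with the GC-box core GGGCGG, searched on both strands, in capitals.
Epcam promoter, chr17:87635729-87635978: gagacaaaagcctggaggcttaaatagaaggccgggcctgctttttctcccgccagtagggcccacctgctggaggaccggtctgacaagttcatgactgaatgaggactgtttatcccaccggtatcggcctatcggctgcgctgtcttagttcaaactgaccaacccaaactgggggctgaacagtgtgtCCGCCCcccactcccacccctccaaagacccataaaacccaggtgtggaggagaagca
Itgb1 promoter, chr8:128685404-128685653: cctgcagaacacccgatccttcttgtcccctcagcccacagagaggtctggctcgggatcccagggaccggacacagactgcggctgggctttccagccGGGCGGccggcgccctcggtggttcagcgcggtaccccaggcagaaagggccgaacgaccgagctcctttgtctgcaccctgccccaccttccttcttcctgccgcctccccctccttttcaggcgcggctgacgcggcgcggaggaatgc
The Epcam stretch held 56.4% G and C with 8 CpG dinucleotides, and the Itgb1 stretch held 68% with 21, against medians of 52.4% and 6 over 32851 mouse promoters. Each held 1 match to GGGCGG, which 32.7% of those promoters hold. TATAAA on either strand occurred in neither stretch, and 12.4% of the promoters hold it. The matches are a description of the letters and say nothing of binding.

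The deposited table held 970 barcodes with 2655 to 44915 UMIs each and 11358045 UMIs in all. Of these, 919 cells were kept and clustered with the 8 genes left out of the clustering genes: 323 germ cells (35.1%) and 596 somatic cells. The somatic cells fell into 255 Sertoli-like, 186 stromal-like, 94 peritubular myoid-like and 35 macrophage-like cells and 26 cells left unnamed. In the unnamed cells, lymphocyte genes (Xcl1, Gzmc, Cd3g) and pericyte genes (Rgs5, Higd1b) both led, 12 cells having more UMIs of T cell markers and 10 more of pericyte markers. Of the germ cells 113 were SSC-like, progenitor-like cells numbered 75, and the 135 others were differentiating-like. The last came from a cluster of 96 cells led by Kit and one of 39 cells led by Prss50, Ly6k and Esx1. Names were rebuilt from marker genes and may differ from those of the study.

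Depth differed between the groups compared. The median was 18220 UMIs per germ cell and 8193.5 per somatic cell. Within the germ cells it was 22353 for the SSC-like class and 19446 for progenitor-like cells, and differentiating-like cells had 10878. Shares of cells with a UMI are therefore given also with every cell thinned to 5000 UMIs, which left out 93 cells, 45 of them germ cells and 48 somatic. Ddx4 and Dazl, which somatic cells should lack, give a floor for such shares. They had a UMI in 3.02% and 12.1% of somatic cells, against 76.5% and 99.7% of germ cells. Whether free RNA gave these somatic UMIs was not tested. The level of 6 germ cell markers in somatic cells was 1.86% to 9.76% of that in germ cells, with a median of 2.41%.

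Epcam separated germ from somatic cells best of the 8 genes. Its level was 124.5 UMIs per 1000000 UMIs (CPM; 115 to 134) in germ cells and 4.85 CPM (3.17 to 7.11) in somatic cells, a ratio of 25.7-fold (17.4 to 39.6). Only 26 of its 716 UMIs were in somatic cells, so the somatic level was 3.90% of the germ level, within the range of the 6 germ cell markers. Of the somatic UMIs, 17 were in Sertoli-like, 4 in stromal-like and 5 in the unnamed cells. Peritubular myoid-like and macrophage-like cells had none. Against a floor of 3 UMIs per class the germ level was 30.7-fold and 21.4-fold higher, with lower limits of 24.9-fold and 17.4-fold. The 5 UMIs of the unnamed cells were all in the 12 cells with more T cell marker UMIs (65.7 CPM, 21.3 to 153).

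Mcam had the next largest ratio. It stood at 67.7 CPM (61.0 to 74.9) in germ cells and 6.53 CPM (4.55 to 9.08) in somatic cells, 10.4-fold higher (7.32 to 15.1). The somatic level was 9.65% of the germ level, within the range of the 6 germ cell markers only through Taf4b (9.76%). The next highest marker, Tdrd1, was at 4.72%, and the median was 2.41%. With a mitochondrial limit of 5%, which left 67 germ cells of lower depth, the log2 ratio went from 3.37 to 1.67. Its 35 somatic UMIs were unevenly placed: 13 in Sertoli-like cells, 12 in peritubular myoid-like cells (16.2 CPM), 9 in the unnamed cells, 1 in stromal-like cells and none in macrophage-like cells. All 9 in the unnamed cluster were in the 10 cells with more pericyte marker UMIs, at 145 CPM (66.3 to 275), and 5 of those 10 cells had one. The level there overlapped that of SSC-like cells, 104 CPM (91.9 to 118). Differentiating-like germ cells, at 27.8 CPM, did not differ from peritubular myoid-like cells beyond counting error (log2 ratio 0.78, −0.16 to 1.83). Among Sertoli-like cells 9 of the 13 UMIs were in 1 of the 3 clusters (13.6 CPM, 6.23 to 25.9).

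Cdh1 (E-cadherin) was counted in few germ cells and hardly in the named somatic classes. It had 30 UMIs in 29 of 323 germ cells (5.41 CPM, 3.65 to 7.73) and 5 UMIs in 4 of 596 somatic cells (0.933 CPM, 0.303 to 2.18), a ratio of 5.80-fold (2.23 to 19.2). Of the somatic UMIs, 4 were in cells of the unnamed cluster with more T cell marker UMIs and 1 was in a Sertoli-like cell. Those 4 UMIs put the 26 unnamed cells at 24.2 CPM (6.60 to 62.1), 4.48-fold above germ cells (1.15 to 12.7). The 12 cells with more T cell marker UMIs stood at 52.6 CPM (14.3 to 135), with a UMI in 3 of them. Without the unnamed cluster the log2 ratio of germ to somatic level went from 2.54 to 4.81, resting then on that 1 somatic UMI. Stromal-like, peritubular myoid-like and macrophage-like cells had no Cdh1 UMI, which allows a level of up to 2.25, 4.98 and 7.15 CPM.

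The laminin-binding pair Itga6 and Itgb1 was higher in somatic than in germ cells, in different classes. Itga6 stood at 31.6 CPM (27.1 to 36.6) in germ and 64.6 CPM (57.9 to 71.7) in somatic cells, 2.05-fold lower in germ cells. Sertoli-like cells held 283 of its 521 UMIs (123 CPM, 109 to 139) and macrophage-like cells stood at 91.1 CPM (66.9 to 121). These classes did not differ beyond counting error, with a log2 ratio of 0.44 (−0.01 to 0.91). Stromal-like and peritubular myoid-like cells were at 3.65 and 4.05 CPM, below all germ cell stages but the Prss50 cluster. Itga6 thus marked germ and Sertoli-like cells against the stromal-like class, not germ cells against Sertoli-like cells. All 3 Sertoli-like clusters carried it, at 96.8, 128.5 and 146.5 CPM.

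Itgb1, the partner of many integrin alpha subunits, was found in every named class and stage. Germ cells had 58.8 CPM (52.6 to 65.6) and somatic cells 145 CPM (135 to 156), 2.47-fold lower in germ cells. Peritubular myoid-like cells led the named classes at 251 CPM (216 to 290), followed by stromal-like cells at 157, macrophage-like cells at 132 and Sertoli-like cells at 97.6 CPM. Each germ cell stage was lower than each of these classes, from 44.6 CPM in progenitor-like to 69.3 CPM in differentiating-like cells. In the 10 unnamed cells with more pericyte marker UMIs Itgb1 reached 499 CPM (339 to 708).

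Cd9 did not divide germ from somatic cells by level. It stood at 100.5 CPM (92.3 to 109) in germ and 90.5 CPM (82.6 to 98.9) in somatic cells, a log2 ratio of 0.15 (−0.03 to 0.33). Macrophage-like (141.5 CPM), stromal-like (128.5 CPM), SSC-like (127 CPM) and progenitor-like cells (117 CPM) followed each other in level, and no neighbours in that order differed beyond counting error. Peritubular myoid-like (67.5 CPM), Sertoli-like (49.2 CPM) and differentiating-like cells (48.6 CPM) formed a lower set. The 26 unnamed cells, not placed in that order, had 230 CPM (163 to 316), 2.29-fold above germ cells (1.60 to 3.18). The stromal-like class was itself mixed for Cd9. Divided as at a clustering resolution of 1.2, its 126 cells led by Kcnk3, Aqp2 and Vcam1 had 58.6 CPM (44.9 to 75.1), and its 60 cells led by Clec3b and Tppp3 had 255 CPM (216 to 300).

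Cd24a was chiefly a stromal-like transcript here. Stromal-like cells held 154 of its 254 UMIs (93.8 CPM, 79.6 to 110), peritubular myoid-like cells had 24.3 CPM (14.4 to 38.4) and germ cells 14.1 CPM (11.1 to 17.6). One stromal-like cell held 31 of the UMIs. The 255 Sertoli-like cells had none, which allows up to 1.61 CPM. Against a floor of 3 UMIs the germ level was 10.8-fold higher, with a lower limit of 8.55-fold. Over germ and somatic cells as a whole the level was 2.33-fold lower in germ cells. Within the stromal-like class its direction was the reverse of that of Cd9: 134 CPM (113 to 158) in the group led by Kcnk3 and 20.6 CPM (10.6 to 35.9) in the group led by Clec3b, 6.52-fold higher in the former (log2 ratio 2.70, 1.86 to 3.69). In the Kcnk3 group 38.9% of cells had a UMI, and in the Clec3b group 15%. The Kcnk3 group also had 167 UMIs of the Leydig cell gene Cyp17a1, in 7.14% of its cells, and the Clec3b group had none.

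Thy1, the gene whose protein was used to select these cells, was hardly counted in germ cells. It had 12 UMIs in 11 of 323 germ cells, 2.16 CPM (1.12 to 3.78), a share of 3.41% of cells with a UMI. Sertoli-like cells, at a lower median depth of 8343 UMIs, had 1 such cell of 255, or 0.392%. At 5000 UMIs per cell the shares were 1.08% of germ cells, from 3 cells, and 0% of Sertoli-like cells. The part of free RNA in these 12 UMIs was not tested. Of all 75 UMIs, 46 were in the 26 unnamed cells, at 279 CPM (204 to 372). Those with more T cell marker UMIs had 539 CPM (387 to 731) in 7 of 12 cells, and those with more pericyte marker UMIs had 80.5 CPM (26.1 to 188) in 3 of 10. One cell held 18 of the UMIs. Thy1 is a known surface antigen of mouse T cells.

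Stromal-like cells came next for Thy1, with 16 UMIs in 13 of 186 cells (9.75 CPM, 5.57 to 15.8). In Sertoli-like cells 1 UMI was counted, and in peritubular myoid-like and macrophage-like cells none, which allows up to 4.98 and 7.15 CPM. SSC-like cells, with 3.22 CPM (1.39 to 6.34) from 8 UMIs, were below stromal-like cells by a log2 ratio of 1.60 (0.29 to 3.03) and not apart from progenitor-like cells (1.46 CPM) beyond counting error. The germ level was 0.777% of that in the unnamed cells, within the 0% to 6.55% found for 10 T cell and pericyte markers (median 0.572%). It was 22.2% (9.59 to 50.05) of that in stromal-like cells, where 6 stromal markers gave 0.115% to 1.93%. Over all somatic cells the germ level was 5.43-fold lower (log2 −2.44, −3.47 to −1.54), but with the unnamed cluster left out the log2 ratio was −0.60 (−1.79 to 0.56), an interval that includes equality. Low mRNA is not low protein, and the bead selection acted on protein.

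**Figure D1:**
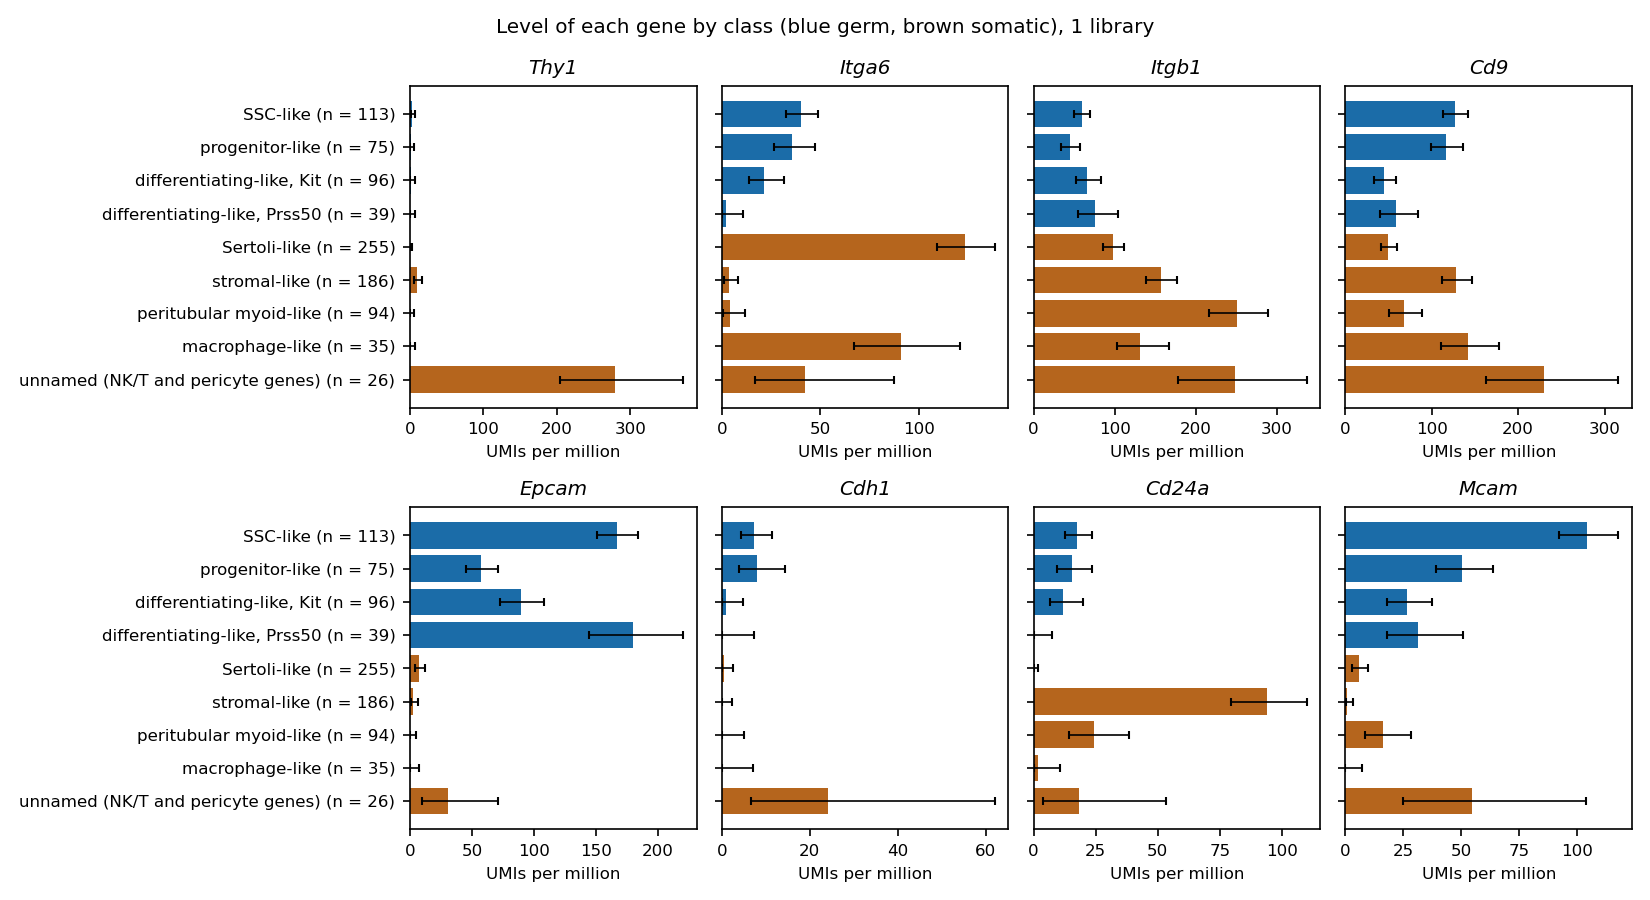
Level of each gene in UMIs per 1000000 (horizontal axis, from 0, scaled for each gene) in 4 germ cell clusters (blue) and 5 somatic groups (brown), with 95% exact Poisson intervals as black bars. Epcam is highest in germ cells, Itga6 in Sertoli-like and macrophage-like cells, Cd24a in stromal-like cells and Thy1 in the 26 unnamed cells. Mcam is highest in SSC-like cells, and the unnamed cells (54.5) lie near progenitor-like cells (50.4) and above both differentiating-like clusters.

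**Figure D2:**
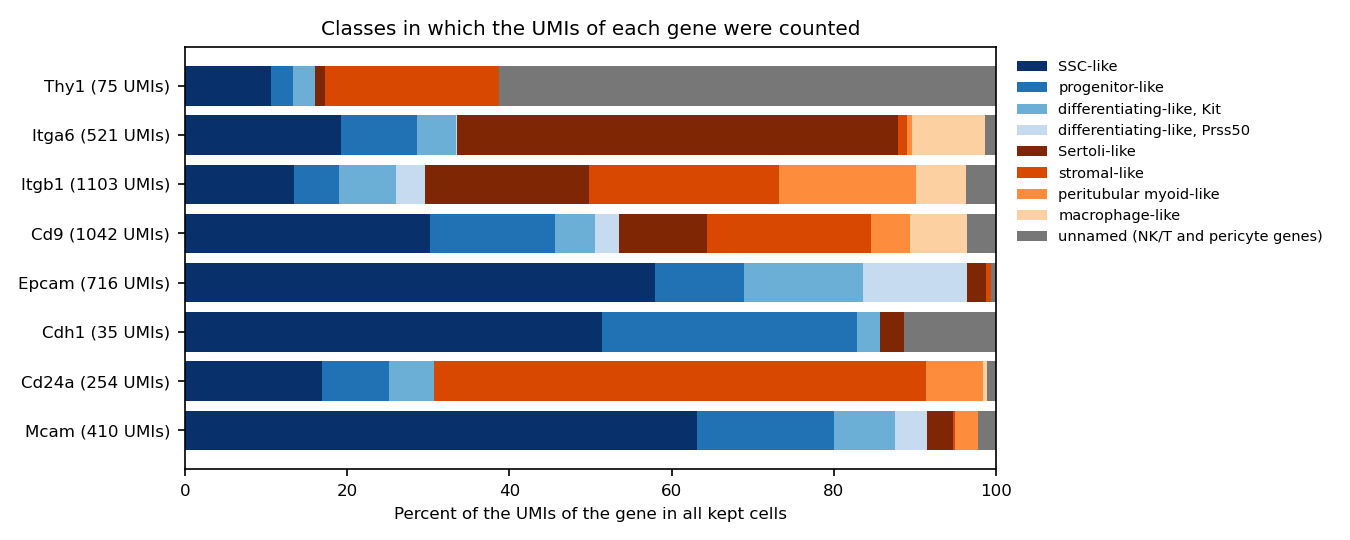
Percent of the UMIs of each gene counted in each class (horizontal axis), with 1 bar per gene and blues for germ cells. Germ cells hold 96.4% of Epcam and 91.5% of Mcam UMIs but 16% of Thy1 UMIs, of which the unnamed cells hold 61.3%.

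Across all genes with at least 50 UMIs in germ and somatic cells together, 24.1% of 11024 were at least 2-fold higher in germ cells, and 2 of the 7 surface marker genes with that many were, Epcam and Mcam. Lower levels by at least 2-fold were found for 26.7% of all genes and for 4 of the 7, Thy1, Itga6, Itgb1 and Cd24a. Cdh1 had too few UMIs to be counted in either tally. Thy1 reached the limit of 50 through its 63 somatic UMIs, with 12 in germ cells. Itga6 lay close to the limit of 2-fold. A count of 2 of 7 is near the background share, and 4 of 7 is above it, over few genes. The area under the receiver operating curve gives how often a germ cell has more CPM of a gene than a somatic cell, with ties shared, 0.5 being no separation. It was 0.824 for Epcam, and 1.81% of genes had a larger one. Mcam followed with 0.712, a value that 7.41% of genes exceeded. An area of at least 0.7 was found for 8.38% of all genes. Cd9 had 0.586, Cdh1 0.541, Cd24a 0.524, Thy1 0.496, Itga6 0.482 and Itgb1 0.327. With the 5% mitochondrial limit the areas of Epcam and Mcam were 0.681 and 0.527, both under 0.7. Log2 ratios of germ over somatic level were then −3.17 for Thy1, −1.89 for Itga6, −2.30 for Itgb1, −3.00 for Cd24a and 1.15 for Cdh1, and Cd9 turned to −0.65. At 5000 UMIs per cell the areas of Epcam and Mcam were 0.705 and 0.624, and fewer germ cells then had a UMI.

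**Figure D3:**
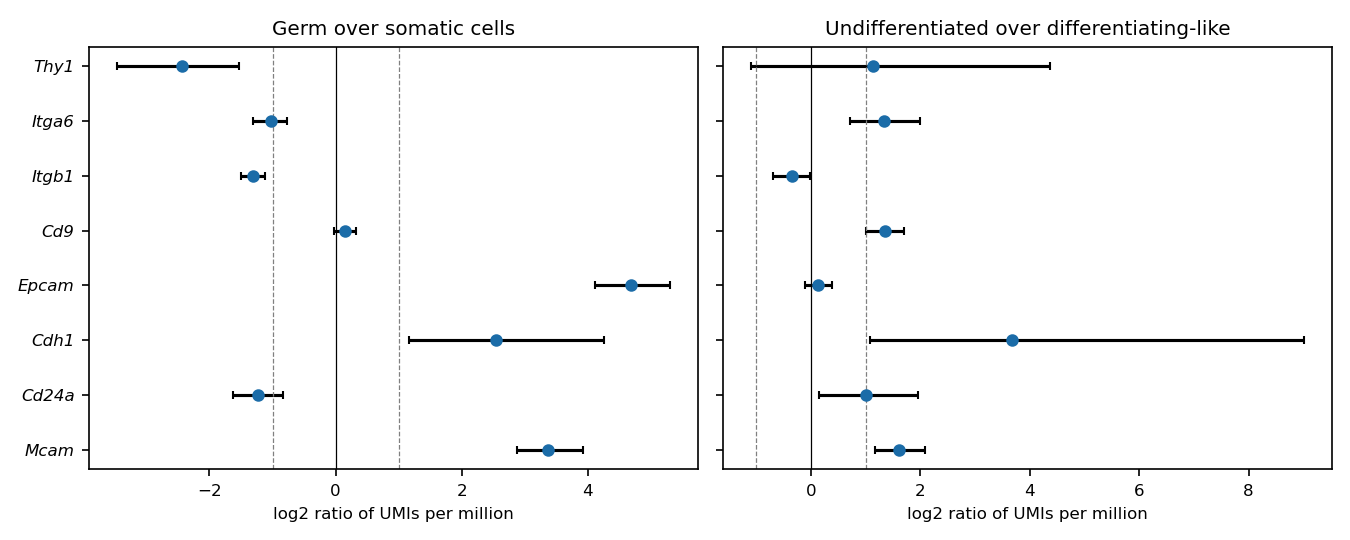
Log2 ratios of UMIs per 1000000 (horizontal axis) for germ over somatic cells and for undifferentiated over differentiating-like germ cells, 1 point per gene with its 95% exact interval; dashed lines mark 2-fold. Epcam (4.68) and Mcam (3.37) lie far right in the first panel, whereas in the second Epcam (0.13) is near 0 and Mcam (1.61), Cd9 (1.34) and Itga6 (1.33) lie right of 2-fold.

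Within the germ cells the genes sorted differently. Between undifferentiated (SSC-like and progenitor-like, 188 cells) and differentiating-like cells (135), 7.48% of 8217 genes were at least 2-fold higher in the undifferentiated cells, and 4 of the 6 surface marker genes with at least 50 UMIs were: Mcam, Cd9, Itga6 and Cd24a. None of the 6 was 2-fold lower, against 5.60% of all genes. The remaining 2, Itgb1 and Epcam, lay within 2-fold. The limit of 50 UMIs was set on both stages together, so a gene could reach it mostly through a single stage. Undifferentiated cells had 64 UMIs of Cd24a and 149 of Itga6, and differentiating-like cells had 14 and 26. Cd24a only just reached 2-fold (2.001-fold). With stages chosen by Gfra1 or Ret against Kit or Stra8 it was 1.32-fold higher (0.66 to 2.72). Epcam, the gene with the highest germ to somatic ratio, had a log2 ratio of 0.13 (−0.11 to 0.38) between these stages.

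For Mcam, SSC-like cells with 104 CPM stood above progenitor-like cells with 50.4 CPM (39.2 to 63.8), and these above differentiating-like cells with 27.8 CPM (20.5 to 37.0), each step beyond counting error. The undifferentiated level was 85.1 CPM, 3.06-fold the differentiating-like one (2.25 to 4.24), with an area of 0.739. Areas between germ cell stages are for cells as sequenced, whose depth differs, and were not taken at equal depth. An area of at least 0.7 was found for Cd9 and Mcam, 2 of the 6 genes, and for 2.41% of all genes. Both differentiating-like clusters were low, at 26.4 CPM in the Kit cluster and 31.2 CPM in the Prss50 cluster. Weighing each cell alike raised its log2 ratio from 1.61 to 2.13.

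Cd9 kept its level from SSC-like to progenitor-like cells (log2 ratio 0.12, −0.16 to 0.40) and was 2.54-fold higher (2.002 to 3.25) in undifferentiated cells, 123 against 48.6 CPM. Its area of 0.745 was the highest of the 8 genes in this comparison, and 1.06% of genes had a larger one. The Kit cluster (44.2 CPM) and the Prss50 cluster (58.6 CPM) did not differ in Cd9 beyond counting error. Cd9 thus divided undifferentiated from differentiating-like cells by level, although it did not separate germ from somatic cells.

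Itga6 resembled Cd9 between undifferentiated and differentiating-like cells, but unlike Cd9 it also differed between the differentiating-like clusters. SSC-like cells had 40.2 CPM (32.7 to 48.9), and the level of progenitor-like cells, 35.8 CPM (26.5 to 47.3), was close to it. Differentiating-like cells had 15.4 CPM (10.1 to 22.6), so the gene was 2.51-fold higher in undifferentiated cells (1.65 to 3.97). In the Kit cluster it was still at 21.3 CPM (13.8 to 31.4), but the 39 cells of the Prss50 cluster had 1 UMI, or 1.95 CPM (0.0494 to 10.9). Weighing each cell alike gave a log2 ratio of 2.15 in place of 1.33.

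Itgb1 stood at 54.2 CPM in undifferentiated and 69.3 CPM in differentiating-like cells (log2 −0.35, −0.69 to −0.02). That interval only just leaves out equality, and with stages chosen by Gfra1 or Ret against Kit or Stra8 it included it (−0.12, −0.50 to 0.27).

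Epcam was lowest in the middle of the series. SSC-like cells had 167 CPM (151 to 184) and progenitor-like cells 57.0 CPM (45.0 to 71.1). It stood at 89.3 CPM (73.0 to 108) in the Kit cluster and 180 CPM (145 to 220) in the Prss50 cluster. Between SSC-like and progenitor-like cells it differed 2.93-fold (2.29 to 3.78), with an area of 0.776 that 0.471% of genes exceeded. Epcam alone of the 6 genes counted reached an area of 0.7, as did 1.59% of all genes. In that comparison 4.09% of 6999 genes and 2 of 6 surface marker genes, Epcam and Mcam, were at least 2-fold higher in SSC-like cells, and none of the 6 was 2-fold lower, against 1.24% of all genes. For Mcam the ratio was 2.07-fold (1.58 to 2.74). Each of these 2 genes fell under 2-fold in some setting. The log2 ratio of Mcam was 0.91 with cells thinned to 5000 UMIs, and that of Epcam was 0.91 at a resolution of 1.2. The other 6 genes had intervals that include equality between SSC-like and progenitor-like cells, Thy1 and Cdh1 with few UMIs.

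Cdh1 and Cd24a were scarce but placed mostly in undifferentiated cells. Of 30 germ cell UMIs of Cdh1, SSC-like cells held 18, progenitor-like cells 11 and differentiating-like cells 1, a ratio of undifferentiated to differentiating-like level of 12.7-fold (2.11 to 518.5) that rests on that 1 UMI. SSC-like and progenitor-like cells had 7.24 and 8.04 CPM and did not differ beyond counting error. For Cd24a the SSC-like level was 17.3 CPM, the progenitor-like level 15.3 CPM and the differentiating-like level 8.30 CPM. Its level was 2.001-fold higher in undifferentiated cells (1.11 to 3.86) and so at the limit. All 14 differentiating-like UMIs of Cd24a were in the Kit cluster, and the Prss50 cluster had none, which allows up to 7.20 CPM. Thy1 had 10 UMIs in undifferentiated and 2 in differentiating-like cells, a ratio of 2.19-fold with an interval from 0.467 to 20.6.

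Some differentiating-like cells were shallow. A germ cell cluster of the first clustering with 62 cells and a median of 4037.5 UMIs lent 51 cells to the Kit cluster. Without it the log2 ratios of undifferentiated over differentiating-like level were 1.48 for Mcam, 1.37 for Cd9, 1.10 for Itga6, 1.12 for Cd24a, 0.09 for Epcam and −0.50 for Itgb1, all in the same direction as with it. Choosing stages by single transcripts in place of clusters, 91 germ cells had a UMI of Gfra1 or Ret and none of Kit or Stra8, and 126 had the reverse. Between these, Mcam differed by 1.89, Cd9 by 1.08, Itga6 by 1.27 and Cdh1 by 2.48 on the log2 scale, whereas Cd24a (0.40, from −0.60) and Itgb1 (−0.12, −0.50 to 0.27) did not differ beyond counting error and Epcam differed by 0.30.

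A UMI of a gene can be read as a gate on its mRNA, whereas a sorter reads surface protein, which was not measured. Purity also depends on the share of germ cells, which follows the bead selection and the added cells. Germ cells made up 35.1% of all cells, and 247 cells had an Epcam UMI, of which 222 were germ cells, a purity of 89.9% (85.4 to 93.3) with a recovery of 68.7% of germ cells (63.4 to 73.7). Mcam gave 83.9% purity (77.8 to 88.8) and 48.3% recovery. Cdh1 gave 87.9% (71.8 to 96.6) but recovered only 8.98%. Cd9 gave 47.5% with 64.4% recovery, Cd24a 45.6% with 19.2%, Itga6 38.9% with 35.9% and Itgb1 31.5% with 55.7%. A Thy1 UMI gave 31.4% (16.9 to 49.3), which includes the share of germ cells in the whole library, and recovered 3.41%.

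Deeper germ cells had more chances of a UMI, and thinning to 5000 UMIs changed the picture for the weak genes. Purity stayed at 91.5% for Epcam and 86.2% for Mcam, with recoveries of 42.8% and 27.0%. For Itga6 it went to 20.9% (14.7 to 28.4) and for Cd24a to 21.0% (11.7 to 33.2), both below the 33.7% of germ cells among the 826 cells left. Purity for Cd9 was 39.4% (33.4 to 45.6), an interval that includes that share, with a recovery of 36.7%. Itgb1 gave 21.1% (16.9 to 25.8), below it. Cdh1 gave 76.5% (50.1 to 93.2) and Thy1 17.6% (3.80 to 43.4), from 17 cells each. The shares themselves then changed order: Itga6 had a UMI in 11.2% of germ and 21.4% of somatic cells, where unthinned shares were 35.9% and 30.5%. Likewise Cd24a was found in 4.68% of germ and 8.94% of somatic cells after thinning and in 19.2% and 12.4% before. The order after thinning was that of the CPM.

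**Figure D4:**
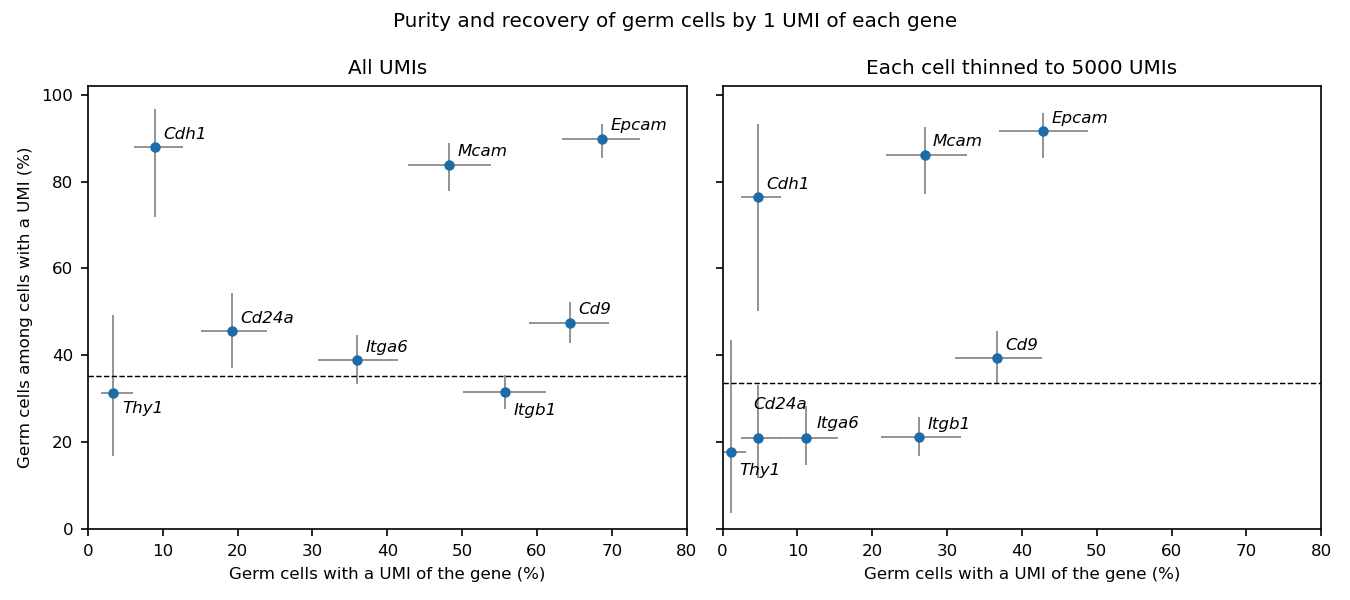
Percent of germ cells among cells with a UMI of each gene (vertical axis) against percent of germ cells that have one (horizontal axis), with 95% exact binomial intervals, for all UMIs and for cells thinned to 5000 UMIs; the dashed line is the percent of germ cells in the library. Epcam and Mcam stay above 80% in both panels, and Itga6 and Cd24a move from above the line to below it.

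Pairs of genes were described in the same way. Of 126 cells with both an Epcam and an Mcam UMI, 123 were germ cells (97.6%, 93.2 to 99.5), recovering 38.1% of germ cells, and at 5000 UMIs all 32 such cells were germ cells (89.1 to 100%). Pairing Cd24a, chiefly a stromal-like transcript, with Mcam gave 42 cells, each a germ cell (91.6 to 100%), and with Epcam 56 cells, 55 of them germ cells. Without an Epcam UMI, 7 of 80 Cd24a cells, 34 of 414 Itgb1 cells and 20 of 190 Itga6 cells were germ cells. At equal depth germ cells with both UMIs were, for some pairs, about as many as the product of the shares gives: for Epcam and Mcam 32 against 32.1, for Cd9 and Epcam 45 against 43.7, and for Itga6 and Itgb1 7 against 8.14. Epcam and Cd24a, with 11 against 5.56, and Cdh1 and Mcam, with 6 against 3.51, were above it. Cd24a and Mcam, with 0 against 3.51, were below, so the pair that gave 42 germ cells in the whole data gave none at equal depth. Cd9 and Mcam had 27 against 27.5 over all germ cells but 13 against 20.1 within SSC-like cells. No interval was set on these counts.

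Other surface genes give the setting for these values. Of 16 further spermatogonial surface genes 14 had enough UMIs, and 4 were at least 2-fold higher in germ cells: Ret, Gfra1, Kit and Tspan8. Over all genes 24.1% were, so 4 of 14 is near the background share. The GDNF receptor pair Ret and Gfra1 had log2 ratios of 6.51 (4.94 to 8.79) and 5.97 (4.41 to 8.26), each with 3 somatic UMIs. Both intervals overlap that of Epcam (4.12 to 5.31). Their areas, 0.695 and 0.647, were smaller than that of Epcam. Lower in germ cells were 8 of the 14, against 26.7% of all genes, among them Cd34 (−5.54), Il6st (−2.76) and Adgra3 (−2.30). The list's median was −1.29, against 0.07 over all genes.

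The integrin subunits counted beyond the pair were mostly lower in germ cells. Of 16 listed 7 had enough UMIs, 6 were lower in germ cells and none was higher, with a median log2 ratio of −3.57. In each list the limit of 50 UMIs was set on germ and somatic cells together, so a gene could reach it through somatic cells alone. Germ cells had 1 UMI each of Itga4, Itga11 and Itgb8, against 77, 58 and 136 in somatic cells. These counts therefore do not describe the subunits with fewer UMIs. For comparison, 26.7% of all genes were lower and 24.1% higher, and the same shares hold for the next lists. Itgb8 (−7.14, −12.45 to −4.63), Itga4 (−6.32, −11.64 to −3.79) and Itgav (−2.69, −3.43 to −2.02) were below Itga6 (−1.03) and Itgb1 (−1.30). Itgb5 (−1.10) and Itga7 (−0.70) were near that pair. Of 11 tetraspanins and CD9 partners 10 were counted, 7 lower and none higher (median −1.57), with Cd63 at −3.00 and Cd81, a close relative of Cd9, at −2.80. Cd9 at 0.15 and its partner Igsf8 at 0.22 lay near equality. Of 10 cadherins, catenins and EPCAM partners 8 were counted, 5 lower and none higher (median −1.53), the endothelial cadherin gene Cdh5 at −4.35 and Cdh2 (N-cadherin) at −1.94.

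Between germ cell stages, 3 of 9 further spermatogonial surface genes were at least 2-fold higher in undifferentiated cells, Tspan8 (4.20), Ret (4.10) and Gfra1 (3.79), and 2 lower, Kit (−3.61) and Adgra3 (−1.16). Over all genes 7.48% were at least 2-fold higher and 5.60% lower, and the same shares hold for the lists that follow. Gfra1 and Kit are defining genes of these stages, and the clustering used such genes. The integrin subunit Itgb5, the only one of its list with enough UMIs, had a log2 ratio of 1.81. Among 7 tetraspanins and CD9 partners Ptgfrn (1.98) was higher and Cd63 (−1.96) lower, and among 5 cadherins and partners Cdh3 (P-cadherin) was higher by 2.45. The limit of 50 UMIs was set on both stages together, so a gene could reach it mostly through a single stage. Undifferentiated and differentiating-like cells had 50 and 4 UMIs of Cdh3, 45 and 5 of Ptgfrn, and 64 and 8 of Itgb5. They had 84 and 2 of Tspan8, and for Kit, the other way, 27 and 144. These counts do not describe genes with fewer UMIs. Cdh3 and Itgb5, like Mcam and Epcam, were also higher in SSC-like than in progenitor-like cells, by 1.53 and 1.11, as was Tspan8 by 1.013. Between those stages 4.09% of all genes were at least 2-fold higher in SSC-like cells.

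The genes most like each marker over the 11 clusters were ranked by Pearson's r of log2(CPM + 10) among 6528 genes, as a description over clusters of 1 library that share their depth and free RNA. Thy1 went with Ndufa4l2 (0.996), Gzmc (0.979), a granzyme of cytotoxic lymphocytes, and Xcl1 (0.976), a lymphocyte chemokine, all in the unnamed cluster. Epcam went with Tuba3b (0.969), Mcm3 (0.968), a subunit of the replicative helicase, and Mrpl4 (0.968). Itga6 went with Tns3 (0.967), Tpd52 (0.959) and Galnt1 (0.923), and Itgb1 with Ier5 (0.966) and the cytoskeletal genes Tpm4 (0.957) and Myl6 (0.938). For Cd24a the nearest was Cdkn1c (0.936), an inhibitor of the cell cycle, followed by Ccnd3 (0.932) and Aebp1 (0.925). The nearest genes of Mcam (Tmem41b, 0.916), Cdh1 (Klk8, 0.8995) and Cd9 (Scamp3, 0.869) were less close.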

How the data were processed

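Per the labels, the submitters' processing notes name Cell Ranger 2.1.0, Seurat and mm10, the assembly GRCm38. The authors deposited UMI counts per gene and barcode, not normalized. Barcodes with under 500 genes (10), at least 10% mitochondrial UMIs (36), a scrublet call (scanpy 1.11.5, expected rate 0.01; 4) or at least 5% hemoglobin UMIs (1; chosen after seeing the data) were left out. With Seurat 5.3.0 in R 4.3.3, log-normalized counts were clustered on mean.var.plot genes without the 8 genes (14 principal components, resolution 0.5), germ cells again alone. A cluster was named by the marker list with the highest mean difference in log-normalized expression between its cells and all others. It was left unnamed where its top 10 genes held as many or more markers of another class. The same was done where under 3 markers of the list were found in at least 10% of its cells. Clusters of low depth with no marker of the list among the top 10 genes were also left unnamed. Levels are summed UMIs per 1000000, with exact Poisson, conditional binomial or binomial intervals (95%) in scipy 1.17.1. A count of 0 uses a floor of 3 UMIs. On simulated germ and somatic cells, 95.5% of intervals of 200 changed genes, in 11024, held the true ratio. The simulated counts were Poisson draws at the same rate within each group, as the intervals assume. The simulation thus checks the calculation and cannot show how intervals hold where UMIs are uneven between cells.

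The genes named were the 8, genes of 4 lists of other surface genes, and the 3 genes most correlated with each over clusters, among those with at least 200 UMIs. The 8 genes, lists and markers were chosen with earlier results of these data known. Alternatives covered filters, doublets, variable genes, resolution, selection of cells, weighting, denominator, depth and a count split.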

Additional observations from a re-analysis of the deposited data

How the results depend on the processing

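Of 541 values under alternative settings, 482 stayed within the counting interval of the reported value (areas: within 0.05), 54 moved and 5, shares or areas apart from equality, changed direction. A further 16 values whose interval included equality changed sign, 9 of them ratios. Several settings gave the same numbers of germ and somatic cells as the main one, 323 and 596. The values are therefore not independent checks, and the count that stayed overstates how far the results were tried. No paired analysis was possible because a single pooled library was measured. A mitochondrial limit of 5% kept 67 germ cells (median 5316 UMIs) and moved most values. Log2 ratios of germ over somatic level became −1.89 for Itga6, −2.30 for Itgb1, −0.65 for Cd9, 1.15 for Cdh1, −3.00 for Cd24a and 1.67 for Mcam. Shares with a UMI, germ minus somatic in percentage points, became −4.12 for Thy1, −9.00 for Itga6, −48.5 for Itgb1, −12.0 for Cd9 and −14.2 for Cd24a, the last 2 in the other direction, 35.6 for Epcam, 0.958 for Cdh1 and 5.63 for Mcam. Itga6 changed sign too, from shares of 35.9% of germ and 30.5% of somatic cells, a difference whose interval included equality. Areas became 0.223 for Itgb1, 0.425 for Cd9, now below 0.5, 0.681 for Epcam, 0.428 for Cd24a and 0.527 for Mcam.

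At 5000 UMIs per cell, germ over somatic ratios were 0.34 for Cd9 and 3.92 for Mcam, and SSC-like over progenitor-like ratios −0.28 for Cd9, 1.17 for Epcam and −1.21 for Cd24a. For Mcam the SSC-like over progenitor-like ratio was 0.91, within its counting interval but under 2-fold. Share differences were −10.2 for Itga6, −23.6 for Itgb1, 8.04 for Cd9, 40.8 for Epcam, 3.95 for Cdh1, −4.27 for Cd24a, in the other direction, and 24.8 for Mcam, and areas 0.705 for Epcam and 0.624 for Mcam. The share difference of Itga6 changed sign here as well. With UMIs split into a set for clustering and a set for measuring, the germ over somatic ratio of Thy1 was −5.18, from 1 germ cell UMI, the SSC-like over progenitor-like ratio of Itga6 −0.44, share differences 49.0 for Epcam, 1.67 for Cd24a and 32.5 for Mcam, and areas 0.396 for Itgb1, 0.743 for Epcam and 0.660 for Mcam; fewer UMIs measured lower these shares. With germ cells chosen by a UMI of Ddx4 or Dazl, the ratio of Itga6 was −0.70, share differences were 51.0 for Epcam and 33.5 for Mcam, and the area of Epcam was 0.756.

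With hemoglobin-rich barcodes kept, 63 cells of the shallow germ cell cluster stayed unnamed and entered neither group. Share differences were then 13.9 for Itga6, 0.679 for Itgb1, in the other direction, 35.7 for Cd9, 74.0 for Epcam and 54.4 for Mcam, with an area of 0.767 for Mcam and an SSC-like over progenitor-like ratio of 1.54. That ratio of Mcam was 1.67 with no mitochondrial limit and 1.51 with no minimum of cells per gene, and that of Epcam was 0.91 at a resolution of 1.2; the cause was not tested. Weighing cells alike gave undifferentiated over differentiating-like ratios of 2.15 for Itga6 and 2.13 for Mcam. Without the unnamed somatic cluster, germ over somatic ratios were −0.60 for Thy1 and 4.81 for Cdh1. Stage ratios could not be had with the 5% limit, which left 1 germ cell cluster, or at a resolution of 0.3, nor in the count split for Thy1 and, for undifferentiated over differentiating-like cells, Cdh1. Thy1 and Cdh1, with 75 and 35 UMIs in all kept cells, have wide intervals at this depth.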
